A study of Mus musculus with 4 samples.

Results

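Platinum uptake and efflux transporters are the proteins that move cisplatin, a platinum chemotherapy drug, into and out of kidney cells. The genes described here are Slc31a1, Slc31a2, Slc47a1, Atp7a, Atp7b, Abcc2, Abcc3, Abcc4 and Abcc6, chosen by symbol. All 9 were found in both deposited tables, 1 of 21312 genes in proximal tubule nuclei and 1 of 24468 genes over 17 clusters of kidney nuclei. Male C57BL/6 mice of the group Cis9w received 4 weekly injections of 8 mg/kg cisplatin, with kidneys collected at 9 weeks from the first dose. The group CT9w was untreated. Each group had 2 samples of kidney cortex with outer medulla, and nuclear RNA was read as UMIs (unique molecular identifiers, 1 per captured transcript) in a droplet 3' assay. Both tables pool nuclei, and their columns carry group or cluster names without samples, so no spread between replicates can be given. Whether 1 or 2 samples a group entered the proximal tubule table was not stated in the labels, and CT9w is labelled only as untreated.

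Copper and platinum share part of their route through a cell. The high-affinity copper importer CTR1, encoded by Slc31a1, can admit cisplatin, its relative CTR2 (Slc31a2) sits largely on internal membranes, and the copper-exporting ATPases ATP7A and ATP7B can sequester or export platinum. In the proximal tubule, the organic cation transporter OCT2 brings cisplatin in from the blood side, and the exchanger MATE1, encoded by Slc47a1, passes organic cations into the urine. The ABC pumps of the MRP family move conjugates out, with MRP2 (Abcc2) and MRP4 (Abcc4) on the urine side and MRP3 (Abcc3) and MRP6 (Abcc6) on the blood side of epithelial cells. Transcripts in nuclei do not measure protein or transport.

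The proximal tubule pool held 5123727 UMIs in CT9w and 8557662 in Cis9w, and the 17 clusters held from 254460 to 7425098. Levels are the authors' averages, in normalised UMIs per nucleus, and intervals are 95% intervals of UMI sums, which hold counting error and nothing else. Each table had its own scaling. A gene was called where the authors' deposited table had a p under 0.05 (by a test not named in the labels), and "rose" and "fell" are used for called genes only. Since the columns carry no samples, these p-values cannot be taken to cover differences between animals. Most cluster names checked held their markers, with all 8 endothelial markers called in EC1 and in EC2, 7 of 7 podocyte markers in Podocyte, 7 of 8 first-segment markers in PT-S1 and 7 of 9 third-segment markers in PT-S3-2. Segment names were less clear elsewhere. PT-S2 had 2 of 8 second-segment and 3 of 8 first-segment markers called, PT-S2/S3 had 6 of 8 second-segment and 2 of 9 third-segment ones, and PT-S3-1 had 4 of 9 third-segment and 2 of 8 second-segment ones.

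In proximal tubule nuclei after cisplatin, the efflux pump genes Abcc3 and Abcc4 rose and the other 7 transporter genes were not called. None of the 9 fell. The urine-side exporter genes Slc47a1 and Abcc2 and the copper importer gene Slc31a1 had ratios between 0.939 and 1.03. Over all 21312 genes, 212 were called higher (0.995%) and 242 lower (1.14%), or 2.13% in either direction. The same members passed at a p under 0.01, where 0.535% of all genes were higher and 0.727% lower, and at a log2 fold change past 1 in size, where 7.5% were higher and 9.93% lower. Log2 fold changes of the authors' deposited table had a median of 0.04 over the 9 genes and of 0.04 over all genes.

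**Figure D1:**
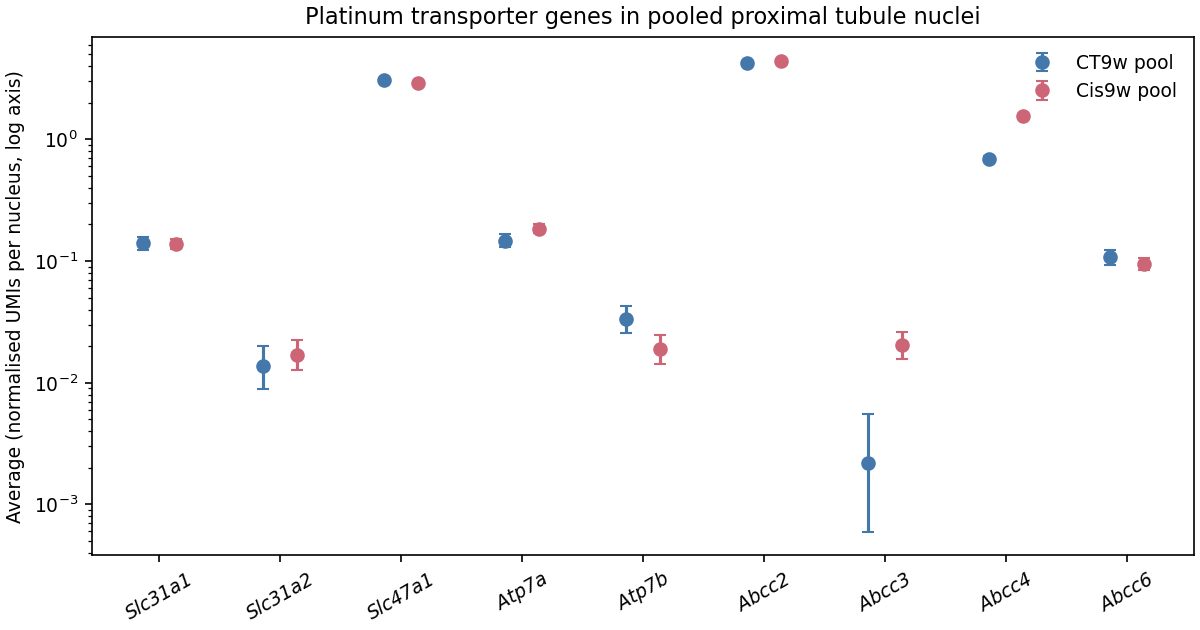
Authors' average of each transporter gene, in normalised UMIs per nucleus on a log axis, in the CT9w and Cis9w pools of proximal tubule nuclei (points), with 95% Poisson counting intervals (bars). The 2 points of Abcc4 (0.693 and 1.56) and of Abcc3 (0.00218 and 0.0206) stand apart, while those of Slc47a1, Abcc2 and Slc31a1 lie close together.

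The importer gene Slc31a1 had 257 UMIs in CT9w and 424 in Cis9w. The average went from 0.140 to 0.139, a ratio of 0.988 (0.844 to 1.16), for which the authors' deposited table gave a p of 1. Slc31a1 spans 62360727 to 62391769 on chromosome 4 of mm10 (GENCODE M21), on the plus strand, and its 3' end overlaps Cdc26 on the opposite strand. Whether counting used the strand was not stated in the labels, so UMIs near that end cannot be assigned with certainty. Slc31a2 lies just upstream on the same chromosome, from 62262562 to 62298411. It had 25 UMIs in CT9w and 52 in Cis9w, averages of 0.0136 and 0.0170 and a ratio of 1.25 (0.759 to 2.09), whose interval includes 1.

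Neither copper ATPase gene was called. Atp7a, on chromosome X from 106027276 to 106124926, had 270 UMIs in CT9w and 565 in Cis9w. Averages of 0.147 and 0.185 give a ratio of 1.25 (1.08 to 1.45), and the authors' deposited table had a p of 1. Atp7a was highest in PC and next in CNT (below). Principal cell markers summed to 0.0775 in CT9w and 0.105 in Cis9w, with 1 of 7 called higher, and connecting tubule markers to 0.882 and 1.63, with 1 of 6 called higher. The part of such RNA in the value of Atp7a was not tested. Atp7b, on chromosome 8 from 21992785 to 22060305, had a counting interval wholly below 1, as did Slc47a1. It had 61 UMIs in CT9w and 58 in Cis9w, from pools of unequal size, which gives averages of 0.0333 and 0.0190. The Cis9w average was 1.76-fold lower (1.21 to 2.56), and with a p of 0.443 from the authors' deposited table Atp7b was not called. Markers of the third tubule segment, the part of the tubule where Atp7b was highest (below), moved the same way. Of its 9 measured markers 6 fell, none rose, and their summed average was 14.9 in CT9w and 5.69 in Cis9w. The part of these nuclei in the value of Atp7b was not tested.

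The urine-side genes Slc47a1 and Abcc2 had the most UMIs of the 9, so small differences can be read against counting error. Slc47a1, on chromosome 11 from 61343401 to 61378345, had 5685 UMIs in CT9w and 8916 in Cis9w, and averages of 3.10 and 2.91. Their ratio was 0.939 (0.908 to 0.971), and the p that the authors' deposited table lists is 1. Abcc2, on chromosome 19 from 43782192 to 43840740, had 7840 and 13445 UMIs and averages of 4.28 and 4.39, with the ratio at 1.03 (0.998 to 1.06). Neither gene was called, and differences between animals are not covered by these intervals. Abcc6, the pump gene mutated in pseudoxanthoma elasticum, lies on chromosome 7 from 45967555 to 46030302. It had 197 and 292 UMIs, averages of 0.108 and 0.0954, and a ratio of 0.887 (0.738 to 1.07).

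Abcc4 encodes MRP4, which exports cyclic nucleotides, urate and drug conjugates into the urine. It had 1269 UMIs in CT9w and 4768 in Cis9w, an average of 0.693 in CT9w and of 1.56 in Cis9w. That is a ratio of 2.25 (2.11 to 2.40), and the authors' deposited table lists a log2 fold change of 1.17 with a p of 0.00168. By log2 fold change it ranked 1302 of 21312 genes. Abcc3, which encodes MRP3, went from 4 UMIs to 63 and from an average of 0.00218 to 0.0206. The ratio was 9.43 (3.51 to 35.7), and the authors' deposited table lists a log2 fold change of 2.94, rank 70 of 21312, with a p of 0.000343. The width of that interval comes from the 4 UMIs in CT9w. Abcc3 remained a rare transcript in both pools.

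**Figure D2:**
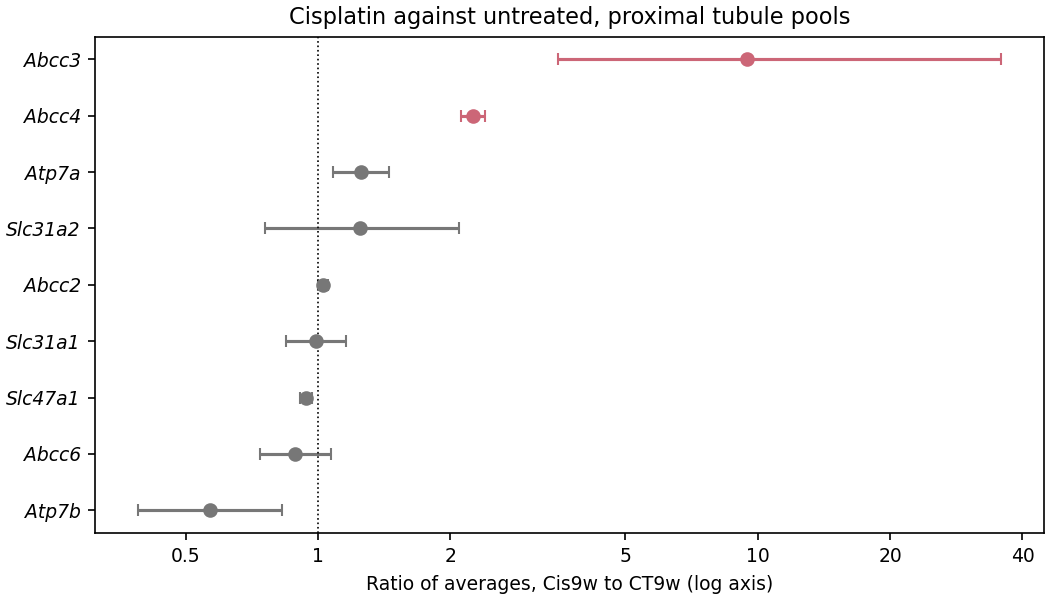
Ratio of the Cis9w average to the CT9w average for each of the 9 genes, on a log axis, with 95% Clopper-Pearson counting intervals (bars) and a dotted line at 1. Red marks the genes called higher in the authors' deposited table, Abcc4 (2.25) and Abcc3 (9.43), and grey the 7 that were not called.

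Injury markers moved with these rises. Of 10 injured-tubule markers 7 rose and none fell, and their summed average was 0.243 in CT9w and 1.47 in Cis9w, with Krt20, Sox9 and Lcn2 at 0 UMIs in CT9w. Havcr1, which encodes kidney injury molecule 1, went from 2 UMIs to 177. A higher level per nucleus and a larger share of nuclei of one kind cannot be told apart in these pools. The cluster averages carry no group name. In them the level of Abcc4 in PT-injury/repair was 0.881, against 0.891 in the other 5 proximal tubule clusters pooled, a ratio of 0.990 (0.916 to 1.07). For Abcc3 the same levels were 0.0269 and 0.00772, a ratio of 3.48 (2.07 to 5.62). Third-segment markers, whose cluster PT-S3-2 held the highest proximal tubule level of Abcc3, summed to 14.9 in CT9w and 5.69 in Cis9w, with 6 of 9 fallen. Immune nuclei, in which Abcc3 was highest, gave no called marker among 8 in the pools, and the summed average of these markers was 0.122 in CT9w and 0.0896 in Cis9w. The part of any of these nuclei in the rises of Abcc3 and Abcc4 was not tested.

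Abcc4 is transcribed from the minus strand of chromosome 14, where it spans 118482692 to 118706219. Since it rose, the 250 bases before its first RefSeq start (GRCm38.p6, chr14:118706220-118706469, minus strand) are shown, with letters in capitals where a script found TGACNNNGC, the core of the antioxidant response element to which NRF2 binds, or TGCACNC or TGCGCNC, the core of the metal response element read by MTF1. Both strands were searched. The copper exporter gene Atp7a, called in principal cells but not after cisplatin, is shown beside it from chrX:106026974-106027223, plus strand.
Abcc4: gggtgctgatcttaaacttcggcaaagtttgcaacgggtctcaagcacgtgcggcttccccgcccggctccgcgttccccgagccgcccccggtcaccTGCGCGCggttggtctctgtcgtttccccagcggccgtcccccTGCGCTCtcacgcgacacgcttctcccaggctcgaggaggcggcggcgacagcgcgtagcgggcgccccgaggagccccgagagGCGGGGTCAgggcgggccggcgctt
Atp7a: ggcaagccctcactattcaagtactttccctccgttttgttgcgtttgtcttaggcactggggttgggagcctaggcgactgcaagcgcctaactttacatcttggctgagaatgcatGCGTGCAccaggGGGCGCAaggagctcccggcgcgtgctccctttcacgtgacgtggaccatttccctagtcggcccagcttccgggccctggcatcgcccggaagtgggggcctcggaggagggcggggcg

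The Abcc4 window held 1 antioxidant core, on the opposite strand from 25 to 17 bases before the start, and 2 metal cores, at 152 and 109 bases before it. The Atp7a window held 2 metal cores, both on the opposite strand, at 132 and 120 bases before the start, and no antioxidant core. No match overlapped another. Of the 9 genes, 6 had a window in the RefSeq table, and Slc47a1, Abcc3 and Abcc6 did not. The antioxidant core was also found for Slc31a2, Abcc2 and a second start of Abcc4, and the metal core for Slc31a2 and Atp7b, while Slc31a1 had neither. In all 32851 promoter windows of this length, 10.2% held an antioxidant core and 21.4% a metal core. These matches are letters, not measured binding.

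Across kidney cell types the 9 genes fell into different patterns, described here from the cluster table. Slc47a1, Abcc2, Abcc6 and Atp7b were proximal tubule genes, with from 96.2% to 96.4% of their UMIs in the 6 proximal tubule clusters, which hold 65.9% of all UMIs. Abcc4 and Slc31a1 were broader, with 83.7% and 72.1%. Abcc3, Slc31a2 and Atp7a had 55.7%, 53.6% and 51.5%, and each, like Slc31a1, had its highest average outside the proximal tubule. The authors' deposited table sets each cluster against all other nuclei, and a gene was called higher there with p under 0.05 and log2 fold change from 1 up, and lower with p under 0.05 and a negative log2 fold change.

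**Figure D3:**
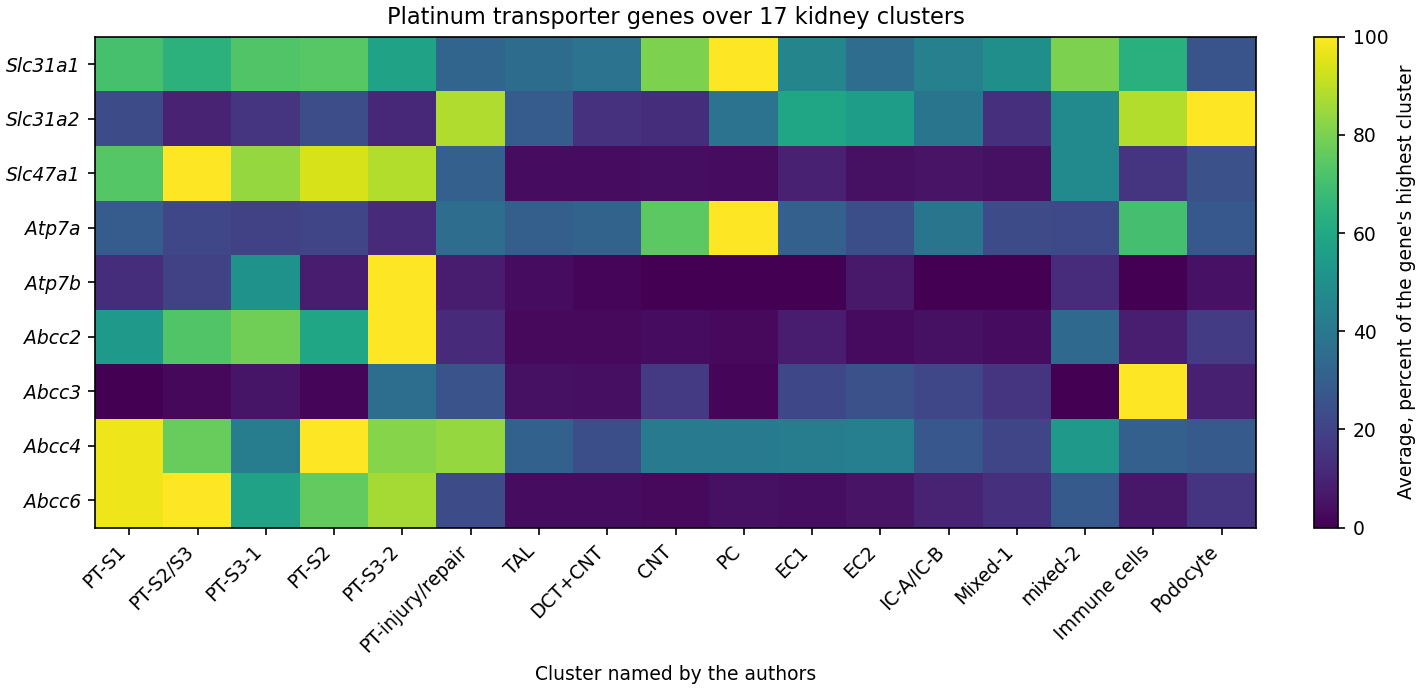
Authors' average of each transporter gene in the 17 clusters, as a percent of that gene's highest cluster. Slc47a1, Abcc2 and Abcc6 are bright over the proximal tubule clusters at the left and dim in PT-injury/repair, Atp7b is bright in PT-S3-2, and Atp7a is bright in PC.

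The importer gene Slc31a1 was broad but not even, and it was 1.34-fold higher in the 6 proximal tubule clusters than in the other 11 (1.20 to 1.49). Its highest average was 0.157 in PC, the principal cells that take up water under vasopressin, and its lowest was 0.0406 in Podocyte. Among the other clusters it was 0.126 in mixed-2 and in CNT, 0.116 in PT-S2, 0.114 in PT-S3-1, 0.111 in PT-S1, 0.101 in PT-S2/S3, 0.0995 in Immune cells and 0.0906 in PT-S3-2. It was 0.0783 in Mixed-1, 0.0717 in EC1, 0.0682 in IC-A/IC-B, 0.0600 in DCT+CNT, 0.0560 in EC2, 0.0552 in TAL and 0.0513 in PT-injury/repair. The intervals of PC (0.125 to 0.195) and Podocyte (0.0216 to 0.0694) did not overlap, whereas no neighbours in this order differed beyond counting error, and the gene was called in no cluster.

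Slc31a2 differed from Slc31a1 in the injured tubule. It averaged 0.0440 in PT-injury/repair, from 36 UMIs, and between 0.00487 in PT-S2/S3 and 0.0117 in PT-S2 in the other 5 proximal tubule clusters. In PT-injury/repair, where 4.61% of all genes were called higher, so was Slc31a2, at a log2 fold change of 2.01 (p of 0.00581, both from the authors' deposited table). It was called lower in PT-S2/S3, where 13.0% of genes were. The highest averages, 0.0499 in Podocyte and 0.0442 in Immune cells, rest on 16 and 8 UMIs and were not called. In the remaining clusters it lay between 0.00663 in CNT and 0.0293 in EC1, with no neighbours in the order that differed beyond counting error.

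**Figure D4:**
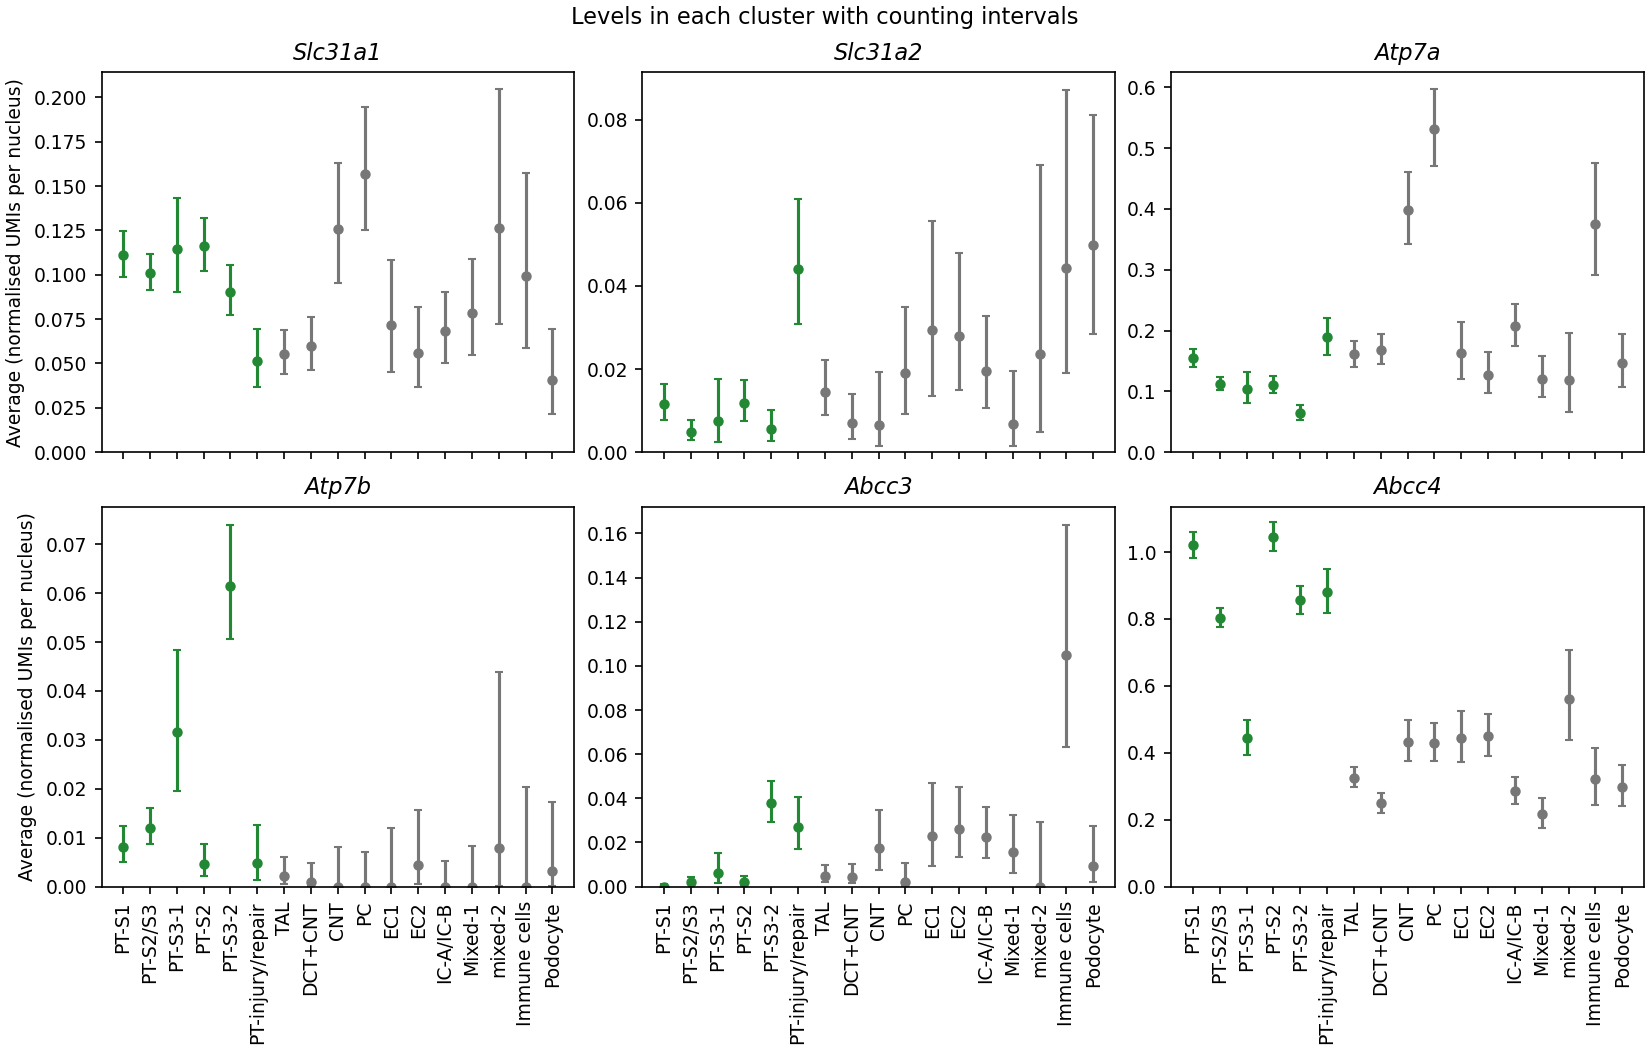
Authors' average in each cluster, in normalised UMIs per nucleus, for 6 of the genes, with 95% Poisson counting intervals (bars). Green marks the 6 proximal tubule clusters and grey the other 11. Atp7a peaks in PC (0.532) and CNT (0.398) and Atp7b in PT-S3-2 (0.0615), while Abcc3 peaks in Immune cells (0.105).

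The copper ATPase genes had unlike orders over the clusters. Atp7a, which delivers copper to secreted enzymes and exports it from most cells outside the liver, averaged 0.532 in PC, 0.398 in CNT and 0.376 in Immune cells. PC stood above CNT by 1.34-fold (1.10 to 1.62), and Immune cells stood above IC-A/IC-B (0.207) by 1.81-fold (1.34 to 2.43). In PC, where 3.14% of genes were called higher, the authors' deposited table lists Atp7a at a log2 fold change of 1.94 and p of 0.00583, and it was called higher. In a run of clusters without differences between neighbours, it was 0.189 in PT-injury/repair, 0.168 in DCT+CNT, 0.163 in EC1, 0.161 in TAL, 0.154 in PT-S1, 0.147 in Podocyte, 0.127 in EC2, 0.121 in Mixed-1 and 0.118 in mixed-2. The 4 lowest averages were 0.112 in PT-S2/S3, 0.111 in PT-S2, 0.104 in PT-S3-1 and 0.0642 in PT-S3-2, the last 1.62-fold below PT-S3-1 (1.18 to 2.19).

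Atp7b, the gene mutated in Wilson disease and best known in liver, was highest in PT-S3-2, where Atp7a was lowest. PT-S3-2 alone held 50.7% of its 221 UMIs, with an average of 0.0615, and PT-S3-1 followed at 0.0316, a ratio of 1.95 (1.21 to 3.27). Atp7b was called higher there, at a log2 fold change of 3.16 (p of 7.8e-17, authors' deposited table), as were 3.49% of genes. PT-S2/S3 was at 0.0119, PT-S1 at 0.00815, PT-injury/repair at 0.00488 and PT-S2 at 0.00469. Outside the proximal tubule there were 8 UMIs over 11 clusters, and 6 of these clusters had none. If 3 UMIs are taken as the limit, this allows an average of up to 0.00417 in IC-A/IC-B, the deepest of the 6. With 1 UMI in DCT+CNT it was called lower there, as were 5.44% of genes.

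The MATE1 gene Slc47a1 had similar levels along the proximal tubule. From the top, its averages were 2.53 for PT-S2/S3, 2.38 for PT-S2, 2.24 for PT-S3-2, 2.14 for PT-S3-1, and 1.86 for PT-S1, and PT-S3-2 and PT-S3-1 did not differ beyond counting error. It averaged 0.779 in PT-injury/repair, below the 1.20 of mixed-2, and 0.624 in Podocyte. Slc47a1 was called lower in TAL, DCT+CNT, PC and IC-A/IC-B, where 5.52%, 5.44%, 1.08% and 1.84% of all genes were. The MRP2 gene Abcc2 instead was higher from the first to the third segment by the clusters' names, of which PT-S2, PT-S2/S3 and PT-S3-1 are the less clear. Its averages were 2.63 for PT-S1, 2.83 for PT-S2, 3.52 for PT-S2/S3, 3.79 for PT-S3-1, then 4.84 for PT-S3-2, with each of these 4 steps beyond counting error, and 0.593 for PT-injury/repair. That last level lay below the 1.65 of mixed-2 and the 0.842 of Podocyte. Abcc2 too was called higher in PT-S3-2, and the authors' deposited table lists its log2 fold change as 1.32 (p of 0.000808). It was called lower in the 4 clusters named for Slc47a1 and in EC2, where 0.507% of genes were called lower.

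Abcc6 was also a gene of the proximal tubule, with another order inside it than Slc47a1. The averages were 0.0836 for PT-S2/S3, 0.0815 for PT-S1, 0.0725 for PT-S3-2, 0.0634 for PT-S2, then 0.0481 for PT-S3-1, and no neighbours differed beyond counting error. It was 0.0195 in PT-injury/repair, and it was called lower in TAL and DCT+CNT. The 11 other clusters held 32 of its 876 UMIs.

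The 2 genes that rose after cisplatin had unlike cluster patterns. Abcc4 averaged 1.05 for PT-S2, 1.02 for PT-S1, 0.881 for PT-injury/repair, 0.856 for PT-S3-2, 0.804 for PT-S2/S3, then 0.444 for PT-S3-1. In the other clusters it lay between 0.217 in Mixed-1 and 0.560 in mixed-2, and it was called in none of the 17. Abcc3 was at 0 UMIs in PT-S1, which allows an average of up to 0.00111 if 3 UMIs are taken as the limit. It was at 0.00188 in PT-S2 and 0.00216 in PT-S2/S3. It was called lower in these 3 clusters, where 9.77%, 7.63% and 13.0% of genes were called lower. It averaged 0.0379 in PT-S3-2 from 69 UMIs and 0.105 in Immune cells from 19 UMIs, and was called higher in both. The log2 fold changes were 2.38 in PT-S3-2 and 3.59 in Immune cells in the authors' deposited table, and 4.25% of all genes were called higher in Immune cells. The level in Immune cells was 2.77-fold that in PT-S3-2 (1.57 to 4.66), and the next level was 0.0269 in PT-injury/repair.

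The share of a gene in all UMIs of a column can be set across the tables, although these were normalised separately and do not hold the same nuclei. The proximal tubule table held 13681389 UMIs, 57.6% of the 23761309 in the 6 proximal tubule clusters, and which nuclei it leaves out was not stated in the labels. Abcc4 made up 2.48 of every 10000 UMIs in the CT9w pool and 5.57 in the Cis9w pool. In the 6 proximal tubule clusters it made up from 2.21 in PT-S3-1 to 5.21 in PT-S2. The Cis9w share lay above that of each of the 6, and the CT9w share just above the lowest. Abcc3 made up 0.00781 of every 10000 UMIs in CT9w and 0.0736 in Cis9w, inside its range over the proximal tubule clusters of 0 to 0.189.

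PT-injury/repair separated the members. In this cluster 9 of 10 injured-tubule markers were called, but so were 4 of 7 thin limb and parietal markers and 3 of 5 urothelial ones. The part of other epithelial nuclei in it was not tested. Compared with the other 5 proximal tubule clusters pooled, Abcc2 was 5.73-fold lower in PT-injury/repair (5.24 to 6.28) and Abcc6 3.85-fold (2.36 to 6.76). Slc47a1 was 2.91-fold lower there (2.69 to 3.15) and Slc31a1 2.06-fold (1.51 to 2.87). Atp7b had 4 UMIs there, a ratio of 0.257 (0.0695 to 0.669). Slc31a2 was 5.44-fold higher (3.59 to 8.10), Abcc3 3.48-fold and Atp7a 1.66-fold (1.40 to 1.97). Abcc4 had nearly the same level in both. In the authors' deposited table, which compares this cluster with all other nuclei, only Slc31a2 of the 9 was called there. In the pools, the ratio of Cis9w to CT9w was 1.03 for Abcc2, 0.887 for Abcc6, 0.939 for Slc47a1, 0.988 for Slc31a1 and 0.569 for Atp7b. It was 1.25 for Slc31a2, 9.43 for Abcc3, 1.25 for Atp7a and 2.25 for Abcc4. The part of injured nuclei in these ratios was not tested.

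Levels outside the proximal tubule were set beside those of 6 genes known for their abundance in the tubule: Slc34a1 (a phosphate transporter), Lrp2 (megalin), Slc5a2 (the glucose transporter SGLT2), Miox (an inositol oxygenase), Gpx3 (a secreted glutathione peroxidase) and Kap (an androgen-regulated kidney protein). All are given as a percent of the gene's level in the 5 proximal tubule clusters without an injury name. The 6 genes spread widely, in TAL from 4.52% for Lrp2 to 92.8% for Kap. The placements that follow compare averages alone, without counting intervals. Slc47a1 lay below their range in 7 of the 11 other clusters and within it in 4. Abcc2 lay below it in 8 and within it in 3, and Abcc6 below in 7 and within in 4. Abcc6 had from 1 to 6 UMIs in each of the 11, so its places below the range are within counting error. In TAL, Slc47a1 stood at 3.84% and Abcc2 at 3.69%, against the 4.52% of Lrp2. Abcc4 lay within the range in all 11, from 24.4% in Mixed-1 to 62.9% in mixed-2. Slc31a1 lay within it in 8 and above it in CNT, PC and IC-A/IC-B, with 149% in PC. Atp7a lay above it in 7 and within it in 4, with 467% in PC. Of the members with the fewest UMIs, Slc31a2 lay above it in 9 and within it in 2. Abcc3 lay above it in 6, within it in 4 and below it in 1, and Atp7b below it in 8 and within it in 3. How much of these levels comes from free RNA or from mixed nuclei was not tested.

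**Figure D5:**
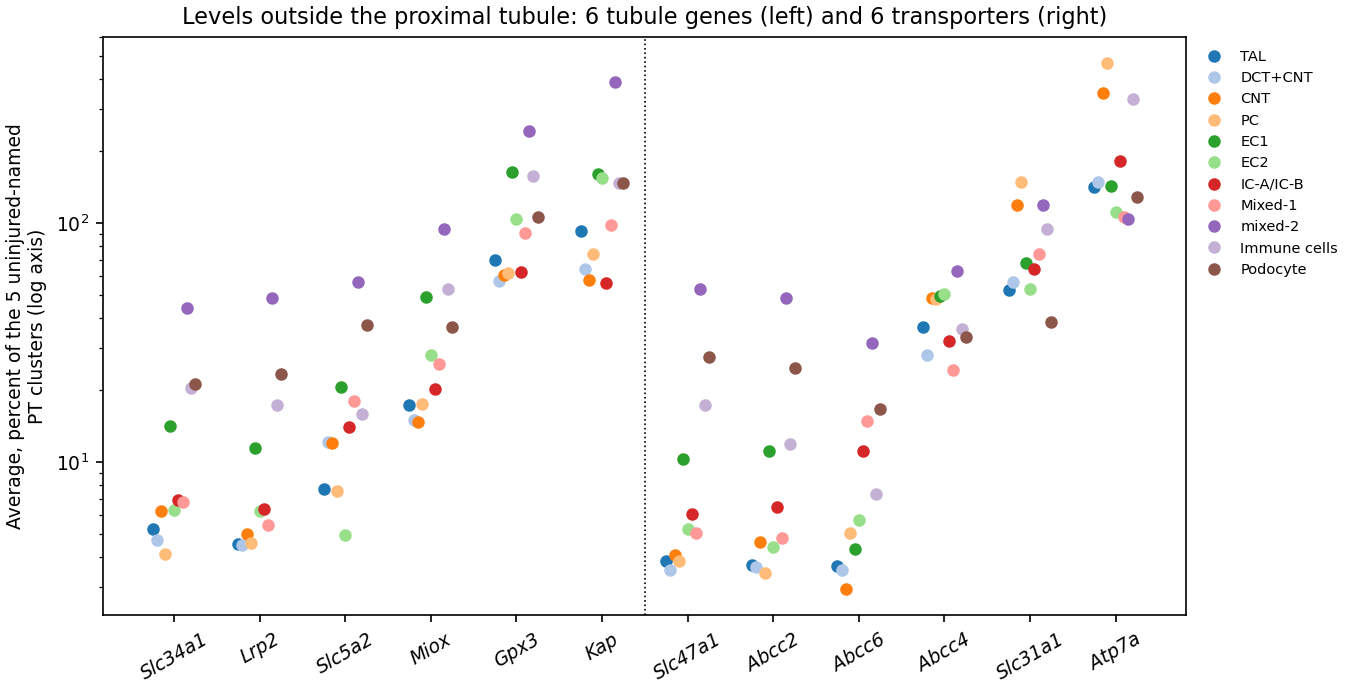
Authors' average in each of the 11 clusters outside the proximal tubule, as a percent of the level in the 5 proximal tubule clusters without an injury name, on a log axis. Colours mark clusters, 6 tubule genes stand left of the dotted line and 6 transporters right of it. Slc31a2, Atp7b and Abcc3 are not drawn. By averages without counting intervals, Slc47a1, Abcc2 and Abcc6 lie below the tubule genes' range in most clusters and within it in the rest. Abcc4 lies inside it in all 11, and Atp7a reaches 467% in PC.

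Other genes of platinum handling were mostly not called after cisplatin, as were most genes. Over all genes, 0.995% were called higher and 1.14% lower. Of 62 measured genes in 5 lists, 3 rose, none fell and 59 were not called, and the log2 fold changes of the authors' deposited table had a median of 0.11, against 0.04 over all genes. None of 9 organic cation and anion carriers was called, and their median was -0.27. Slc22a2, the OCT2 gene, went from 966 UMIs to 1194 and from an average of 0.527 to 0.390, a ratio of 0.740 (0.679 to 0.806), but the p that the authors' deposited table lists is 0.816. It averaged 0.569 in PT-S3-2, where it was called higher, and 0.122 in PT-S1. In PT-injury/repair it averaged 0.0293 from 24 UMIs and was called lower. The second MATE gene, Slc47a2, had a ratio of 0.645 (0.434 to 0.959) from 52 and 56 UMIs. None of 5 subunit genes of the volume-regulated anion channels, which can admit cisplatin, was called.

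Among 8 other measured ABC pump genes, 1 rose. Abcb1b, which encodes a P-glycoprotein of rodents, went from 45 UMIs to 189 and from an average of 0.0246 to 0.0618. The authors' deposited table gave a p of 0.0220, at a ratio of 2.51 (1.81 to 3.56). The list's median was 0.30. Its close paralog Abcb1a had a ratio of 1.67 (1.19 to 2.38) and was not called, and whether UMIs are split between the pair was not tested. Abcc1 had a ratio of 1.19 (0.868 to 1.64) and Abcg2 a ratio of 1.08 (1.03 to 1.14), neither called.

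Of 22 copper chaperone and copper homeostasis genes, Cp alone rose, and the median was 0.11. Cp encodes ceruloplasmin, a copper-carrying ferroxidase, and went from 225 UMIs to 1023 and from an average of 0.123 to 0.334. The authors' deposited table gave a p of 0.00167, at a ratio of 2.72 (2.35 to 3.16). The average of Cp in PT-injury/repair was 1.69, above the 1.17 of Mixed-1 and the 0.253 of PT-S3-2. The copper chaperone gene Atox1, which hands copper to the ATPases, had a ratio of 1.25 (1.02 to 1.54) and was not called. The metallothionein gene Mt1 had a ratio of 0.610 (0.410 to 0.908) from 53 and 54 UMIs, and Mt2 one of 1.95 (0.601 to 8.19) from 4 and 13, and neither was called. Of 18 genes that conjugate or convert platinum-thiol compounds, Gsta2, a glutathione transferase gene, rose 2.50-fold (2.22 to 2.81), from 358 UMIs to 1493, and the median was 0.00. Ggt1, the first enzyme of the conversion of glutathione conjugates, had a ratio of 0.866 (0.797 to 0.942) and was not called.

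Genes with the most similar log levels over the 17 clusters were found by Pearson's r of log2(average + 0.01). This is a description with no test, since the clusters share libraries and free RNA. Of 10684 genes with an average of at least 0.05 in some cluster, Cyp2j5, Pdzk1 and Keg1 lay nearest to Slc47a1 (r of 0.996, 0.992 and 0.990). Lactb2, Slco1a6 and Gm10732 lay nearest to Abcc2 (0.992, 0.991 and 0.991). For Abcc6 they were Gm14764, Anks4b and Gm15962 (0.966, 0.962 and 0.961). For Atp7b they were Aqp7, Ccdc162 and Gm38505 (0.969, 0.940 and 0.936), and Aqp7 encodes a glycerol channel. Atp7a had Fam118b, Lyst and Strip2 (0.924, 0.912 and 0.906), and Abcc4 had Zfp697, Trio and Acat3 (0.906, 0.878 and 0.877). Lower values were found for Slc31a2 with Ywhah, Elf4 and Elmo2 (0.876, 0.870 and 0.851), Abcc3 with Nsd2, Sorcs2 and Tyk2 (0.841, 0.840 and 0.838) and Slc31a1 with Pdzk1ip1, Med13 and Fbxo46 (0.833, 0.765 and 0.759). Between the members, r was 0.987 for Slc47a1 and Abcc2, -0.68 for Atp7a and Atp7b, and -0.43 for Slc31a1 and Slc31a2.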

How the data were processed

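Nuclear RNA of 4 kidney samples, 2 in each group, was counted in a droplet 3' assay, per the labels' protocols. The submitters' processing notes name Cell Ranger 5.0.1 and mm10. How nuclei were filtered and clustered, how doublets and free RNA were treated, and which test was run were not given in the sources used here. Averages were deposited by the authors, as a signal made by dividing UMI sums over nuclei by size factors, as the values show. As deposited, every column adds up to 2797 (proximal tubule) or 2008 (clusters). Log2 fold changes and p-values were used as deposited, and 82.4% of the proximal tubule p-values equal 1. Dividing a column by the value of 1 UMI gave whole UMI sums (tolerance 0.1 UMI) for 99.9953% of genes in both proximal tubule columns and 100% in the clusters. From them came Poisson intervals of levels and Clopper-Pearson intervals of ratios (scipy 1.17.1), with 3 UMIs as the floor of a count of 0. Recovery and intervals were tested on simulated Poisson counts, which held no differences between animals or nuclei. Without columns per sample, no test across samples could be made. Sequences are from RefSeq (GRCm38.p6) and positions from GENCODE M21, the same assembly as mm10. Members and lists were chosen with earlier results of these data known. Named were all 9 members, 3 like genes each, up to 3 called genes per pathway list and 10 fixed genes, and, of the markers, Havcr1. Krt20, Sox9, Lcn2, Cdc26 and the 6 tubule genes were named after their values were seen. Alternatives were a p under 0.01, a fold rule, pseudocounts of 0.01 and 0.001, median subtraction, rescaling without mitochondrial genes, a level floor, other cluster call rules, Spearman's rho and a smaller pseudocount for like genes.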

Additional observations from a re-analysis of the deposited data

How the results depend on the processing

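The counts of members called higher (2) and lower (0) were the same at a p under 0.01, where 0.535% and 0.727% of all genes are called, and with a log2 fold change of at least 1 in place of the p, where 7.5% and 9.93% are. Of 36 recomputed log2 ratios of single members, 35 stayed inside the counting interval. The exception was Abcc3, whose log2 ratio was 1.33 with a pseudocount of 0.01 against 2.94 as deposited, since the pseudocount exceeds its CT9w average. The count of other ABC pump genes called higher was 0 at a p under 0.01 in place of 1, and the other list counts did not move. For calls above all other nuclei, dropping the fold threshold gave 1 cluster for Slc47a1, 2 for Abcc2 and 2 for Abcc6, in place of 0, 1 and 0. A log2 fold change of at least 2 with a p under 0.01 gave 0 clusters for Atp7a and 0 for Abcc2, in place of 1 each. Of the 27 like genes, 11 were also chosen by Spearman's rho, and 18 by Pearson's r with a pseudocount of 0.001. No paired analysis was possible because the columns carry no sample names or replicate numbers, and for the same reason no replicate could be left out. Depth limits Abcc3, Slc31a2 and Atp7b most, with 192, 233 and 221 UMIs over all clusters.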
